A study of Homo sapiens with 24 samples.

Results

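The 10 genes described here form a bone morphogenetic protein (BMP) circuit: the ligand genes BMP2, BMP4, BMP6 and BMP7, the target genes ID1, ID2 and ID3, and the feedback inhibitors SMAD6, SMAD7 and BAMBI. They were taken by symbol from the 60675 gene ids measured, and all 10 were found. BMP4 and BMP6 were chosen by their measured expression change in the p53 null line, so their values there are given as a description with no test. All 10 passed the filter on low counts, which kept 20668 genes, BMP2 through its reads in WT libraries alone, so it is left out of every count that involves Mutant or Null cells.

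Cells of HCT116, a human colorectal carcinoma line, were studied in 3 versions that differ in p53: mutant (Mutant), null (Null) and wild type (WT). Each version received 6 Gy of irradiation after pretreatment with 20 uM APR-246 (the combination), irradiation alone, 20 uM APR-246 alone, or solvent, with 2 libraries of polyadenylated RNA per group, 12 groups and 24 libraries in all. APR-246 is a small molecule developed to restore the folding of mutant p53, and cells were harvested 72 hours after irradiation. The labels give 1 line for each p53 status and do not state how the Mutant and Null lines were made or whether they are single clones, so line and p53 status cannot be told apart. The labels do not say whether the 2 libraries of a group came from separate cultures, so all p-values measure only the spread between these samples.

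BMP ligands are secreted dimers that bind pairs of type I and type II receptor kinases, which phosphorylate SMAD1, SMAD5 and SMAD9. These enter the nucleus with SMAD4 and switch on ID genes, whose products bind and block basic helix-loop-helix transcription factors, together with SMAD6, SMAD7 and BAMBI, which damp the signal. In the intestine, BMP signalling is known for restraining stem cells and favouring differentiation along the crypt.

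Depth was 53184139 to 58058729 reads per library. Levels are the authors' deposited CPM, the reads of a gene scaled to a common total per library, in which 3 reads correspond to 0.0517 to 0.0564 CPM. CDKN1A, the p53 target that arrests the cell cycle, was at 1930 to 2253 CPM in WT combination and irradiation libraries, against 508 and 582 CPM in WT solvent libraries. Of 10 epithelial markers, 6 had a median above 1 CPM (EPCAM, CDH1, KRT8, KRT18, KRT19 and CDX2). COL1A1 did so among 7 fibroblast markers and VWF among 4 endothelial markers, and 0 of 6 blood markers did. No marker was at 0 in all libraries, and the summed levels were 4773 to 17231 CPM for epithelial, 11.8 to 69.1 CPM for fibroblast, 0.964 to 4.12 CPM for endothelial and 0.416 to 3.60 CPM for blood markers.

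Solvent libraries stood apart in stress genes. CHAC1, which degrades glutathione, was at 10.9 to 35.5 CPM in 17 of the 18 treated libraries, against 101 to 272 CPM in the 6 solvent libraries. The remaining treated library, WT APR-246 library 1, had 133 CPM, while WT APR-246 library 2 had 10.9 CPM. DDIT4, an inhibitor of mTORC1 signalling, followed the same division, with 354 CPM in WT APR-246 library 1, 20.7 to 67.8 CPM in the other 17 treated libraries, and 205 to 559 CPM in solvent libraries. By both genes WT APR-246 library 1 lay with the solvent libraries, against its label, and whether it was treated cannot be told from these files; results on APR-246 in WT cells are therefore also given without it. The stress gene differences move with every comparison of a treatment with solvent given here, and their part in those results was not tested. The 2 libraries of a group also differed in the slope of log2 values on gene GC content, which was lower in library 1 than in library 2 in 11 of 12 groups, all but Null APR-246; fits with this slope as a covariate are among the alternatives.

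BMP4, a ligand known for limiting stem cells of the intestinal crypt, was the most abundant of the 4 ligands per kilobase of exon in every library but Mutant solvent library 2, where it was 92.3% of BMP7. It stood above its solvent level in the irradiated libraries of every line. In bulk samples, fewer cells of a type and less RNA per cell cannot be told apart. BMP4 (ENSG00000125378) lies at chr14:53949736-53958761 on the minus strand of GRCh38. In WT cells BMP4 was the sole ligand called against solvent in the main limma test, and the ligands were not compared with each other. The 250 bases before the most upstream of its 3 RefSeq start sites (GRCh38.p14, chr14:53955051-53955300, minus strand) are shown. A GGCGCC match, the GC-rich element bound by SMAD1, is in capitals.

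BMP4: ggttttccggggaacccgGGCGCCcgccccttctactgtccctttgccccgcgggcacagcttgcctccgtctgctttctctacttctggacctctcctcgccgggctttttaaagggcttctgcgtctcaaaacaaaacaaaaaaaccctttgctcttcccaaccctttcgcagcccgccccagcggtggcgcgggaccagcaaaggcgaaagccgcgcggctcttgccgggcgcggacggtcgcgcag

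In WT cells BMP4 stood at 141 and 184 CPM in combination libraries, 149 and 95.9 CPM in irradiation libraries, and 49.0 and 141 CPM in APR-246 libraries, against 44.1 and 28.0 CPM in solvent libraries. All combination and irradiation libraries lay above the solvent libraries, whereas the APR-246 libraries were split, with library 1 close to solvent. BMP4 rose in WT cells under the combination, with a log2 difference of 1.91 ± 0.40 (SE; 3.77-fold; limma adjusted p = 0.0168). It rose under irradiation by 1.75 ± 0.40 (3.37-fold; limma adjusted p = 0.0391). Both calls were lost on leaving out any of the 4 libraries compared, at log2 differences of 1.66 to 2.16 for the combination and 1.70 to 1.80 for irradiation. The irradiation call was also lost by edgeR (adjusted p = 0.0619) and without the filter on low values (limma adjusted p = 0.0767). For APR-246 alone the difference was 1.12 ± 0.40 (limma adjusted p = 1). Without WT APR-246 library 1 it was 2.02 and passed the test (limma adjusted p = 0.0052), and without library 2 it was 0.21; in each case the remaining library was assumed to vary like the other groups.

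In Mutant cells BMP4 stood at 59.1 and 57.9 CPM in combination libraries, 50.5 and 43.7 CPM in irradiation libraries, and 47.1 and 51.2 CPM in APR-246 libraries, against 18.4 and 12.1 CPM in solvent libraries. All 6 treated libraries lay above both solvent libraries, and the 3 treatments lay close together. The log2 differences were 1.87 ± 0.40 for the combination (limma adjusted p = 0.0565), 1.71 ± 0.40 for irradiation (limma adjusted p = 0.0831) and 1.74 ± 0.40 for APR-246 (limma adjusted p = 0.296), none of which passed the threshold of 0.05. DESeq2 on the recovered reads called BMP4 under each of these 3 treatments in Mutant cells. In Null cells, where it was picked, BMP4 stood at 158 and 117 CPM in combination libraries, 152 and 98.4 CPM in irradiation libraries, and 116 and 128 CPM in APR-246 libraries, against 24.7 and 18.5 CPM in solvent libraries. The corresponding log2 differences were 2.59, 2.34 and 2.32.

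**Figure D1:**
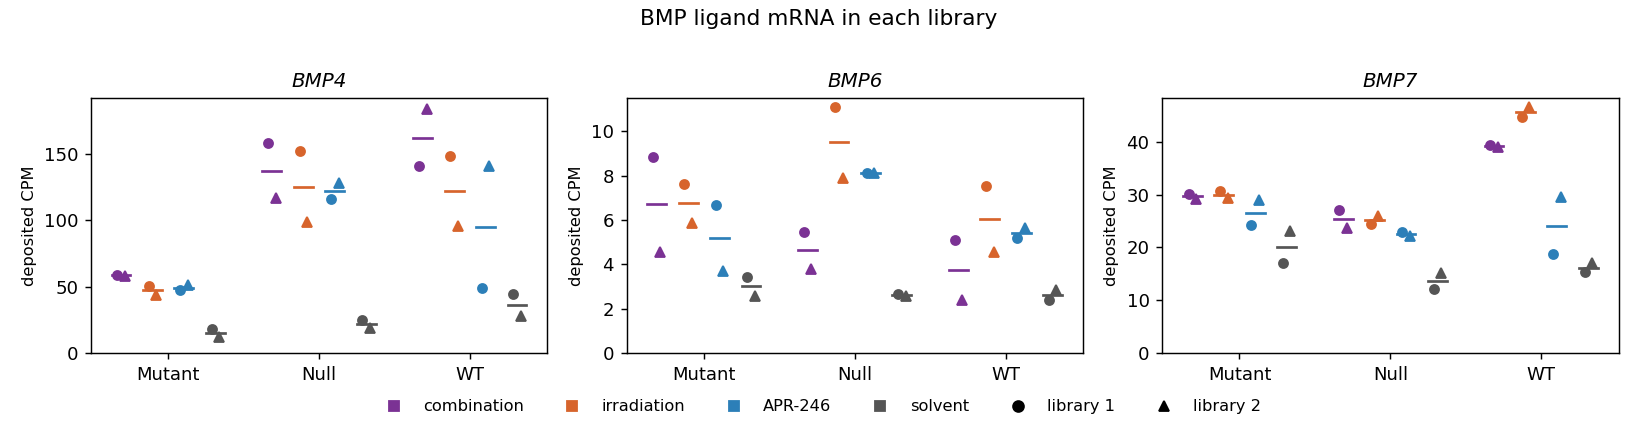
Deposited CPM of BMP4, BMP6 and BMP7 in each library, by line (x axis) and treatment (colour); circles are library 1, triangles library 2 and bars group means of 2 libraries. BMP4 in Mutant libraries reached at most 59.1 CPM, and WT APR-246 library 1 (49.0 CPM) sits by the WT solvent libraries (44.1 and 28.0 CPM).

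BMP6, a ligand best known for inducing hepcidin in the liver, was at 2.40 to 11.1 CPM over the 24 libraries. BMP6 (ENSG00000153162) lies at chr6:7726797-7881422. In WT cells it had 5.07 and 2.41 CPM in combination libraries, 7.52 and 4.55 CPM in irradiation libraries and 5.17 and 5.66 CPM in APR-246 libraries, against 2.40 and 2.85 CPM in solvent libraries. Both irradiation and both APR-246 libraries lay above solvent, while the combination libraries overlapped with it. In Mutant cells it had 8.84 and 4.56 CPM in combination libraries, 7.64 and 5.85 CPM in irradiation libraries and 6.65 and 3.67 CPM in APR-246 libraries, against 3.44 and 2.56 CPM in solvent libraries. All Mutant treated libraries lay above solvent, but no BMP6 difference in WT or Mutant cells passed the test; the one for irradiation was 1.03 ± 0.32 in WT (limma adjusted p = 0.132) and 1.13 ± 0.32 in Mutant cells (limma adjusted p = 0.137). DESeq2 called the one in Mutant cells. In Null cells, where it was picked, BMP6 had 5.46 and 3.80 CPM in combination libraries, 11.1 and 7.91 CPM in irradiation libraries and 8.13 and 8.10 CPM in APR-246 libraries, against 2.66 and 2.57 CPM in solvent libraries. The Null combination libraries lay below the Null irradiation libraries, an arrangement that was not tested.

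BMP7, a ligand needed for kidney and eye development in mice, was at 12.1 to 46.6 CPM. BMP7 (ENSG00000101144) lies at chr20:57168748-57266629 on the minus strand. In WT cells it had 39.3 and 39.1 CPM in combination libraries, 44.8 and 46.6 CPM in irradiation libraries and 18.7 and 29.5 CPM in APR-246 libraries, against 15.4 and 16.9 CPM in solvent libraries. The irradiated WT libraries stood well above solvent, yet the log2 difference of 1.47 ± 0.43 for irradiation did not pass the test (limma adjusted p = 0.102) and that for the combination was 0.99 ± 0.43 (limma adjusted p = 0.3). DESeq2 called the irradiation difference. In Mutant and Null cells the BMP7 differences ran from 0.46 to 0.83 and none passed.

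BMP2 (ENSG00000125845, chr20:6767664-6780280), a ligand close in sequence to BMP4, was almost unread. It had 2 to 16 reads in WT libraries (0.0367 to 0.294 CPM) and 0 to 2 reads in each of the 16 Mutant and Null libraries, where 10 libraries had 0 reads. Mutant and Null libraries were thus all at or below the floor of 3 reads, and no fold is given. Within WT cells no BMP2 difference passed the limma test (adjusted p = 0.744 to 1 for the treatments against solvent).

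The 3 ID genes did not move as a block. ID2 rose in irradiated cells of the WT and Null lines and under the combination in all 3 lines. ID1 lay below its solvent level in irradiated libraries on deposited CPM, and ID3 lay above solvent in most libraries without passing the test. ID1 (ENSG00000125968, chr20:31605283-31606515) and ID3 (ENSG00000117318, chr1:23557918-23559794, minus strand) are classical direct BMP targets. ID2 (ENSG00000115738, chr2:8678845-8684453) belongs to the same family and is also induced by WNT signalling. The ID2 and ID3 promoter windows fall mostly in annotated exons (229 and 250 of 250 bases), so the window before the RefSeq start of ID1 is printed (GRCh38.p14, chr20:31605039-31605288, plus strand), as the family member with the highest level per kilobase of exon. Its capitals mark a pair of overlapping TATAAA matches on opposite strands, 33 and 31 bases before the start.

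ID1: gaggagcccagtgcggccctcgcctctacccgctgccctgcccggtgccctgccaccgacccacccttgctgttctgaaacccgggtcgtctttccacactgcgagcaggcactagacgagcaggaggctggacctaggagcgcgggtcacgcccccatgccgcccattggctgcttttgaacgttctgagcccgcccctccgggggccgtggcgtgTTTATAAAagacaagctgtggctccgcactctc

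In WT cells ID2 had 129 and 100 CPM in combination libraries, 106 and 60.6 CPM in irradiation libraries, and 44.5 and 60.9 CPM in APR-246 libraries, against 39.6 and 25.9 CPM in solvent libraries. Every treated WT library exceeded both WT solvent libraries. ID2 rose under the combination by 1.55 ± 0.29 on the log2 scale (2.92-fold; limma adjusted p = 0.00865) and under irradiation by 1.31 ± 0.29 (2.48-fold; limma adjusted p = 0.0303). For APR-246 the difference was 0.58 ± 0.29 (limma adjusted p = 1), and without WT APR-246 library 1 it was 0.96 (limma adjusted p = 0.285).

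In Null cells ID2 had 51.4 and 26.7 CPM in combination libraries, 42.0 and 26.1 CPM in irradiation libraries, and 13.6 and 23.9 CPM in APR-246 libraries, against 10.3 and 8.07 CPM in solvent libraries. Again all treated libraries lay above solvent. ID2 rose in Null cells under the combination by 1.91 ± 0.29 (3.76-fold; limma adjusted p = 0.0119) and under irradiation by 1.65 ± 0.29 (3.15-fold; limma adjusted p = 0.0231), while APR-246 gave 0.78 ± 0.29 (limma adjusted p = 0.349). In Mutant cells ID2 had 33.2 and 22.9 CPM in combination libraries, 20.8 and 15.5 CPM in irradiation libraries, and 15.5 and 12.1 CPM in APR-246 libraries, against 12.3 and 5.40 CPM in solvent libraries. The lower Mutant APR-246 library lay just under the higher solvent library, and the other treatments lay above solvent. ID2 rose in Mutant cells under the combination by 1.63 ± 0.29 (3.09-fold; limma adjusted p = 0.0331). The difference for irradiation was 1.18 ± 0.29 (limma adjusted p = 0.0911).

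The ID2 calls rest on few libraries. Leaving out any of the 4 libraries lost the call for irradiation in WT (log2 differences 1.17 to 1.45), irradiation in Null (1.56 to 1.75) and the combination in Mutant cells (1.38 to 1.88). Leaving 1 out lost it in 3 of 4 cases for the combination in WT (1.43 to 1.67) and in Null cells (1.71 to 2.12); the call held without WT solvent library 1 and without Null combination library 1. On the deposited CPM without further scaling, the calls for irradiation in WT (limma adjusted p = 0.194), irradiation in Null (limma adjusted p = 0.0713) and the combination in Mutant cells (limma adjusted p = 0.0983) were lost. By edgeR the ID2 calls for irradiation in WT (adjusted p = 0.0539) and for the combination in Mutant cells (adjusted p = 0.0507) were lost, while DESeq2 called all 5.

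ID1 was the most abundant of the 10 genes per kilobase of exon. In Null cells it had 254 and 232 CPM in combination libraries, 274 and 242 CPM in irradiation libraries and 269 and 250 CPM in APR-246 libraries, against 353 and 388 CPM in solvent libraries. All 6 treated Null libraries lay below both solvent libraries. The log2 differences of -0.66 ± 0.38, -0.68 ± 0.38 and -0.69 ± 0.38, in the same order of treatments, did not pass the test (limma adjusted p = 0.444, 0.544 and 0.7). In WT cells ID1 had 340 and 346 CPM in combination libraries, 401 and 404 CPM in irradiation libraries and 551 and 485 CPM in APR-246 libraries, against 452 and 552 CPM in solvent libraries. In Mutant cells it had 496 and 453 CPM in combination libraries, 490 and 478 CPM in irradiation libraries and 561 and 522 CPM in APR-246 libraries, against 555 and 581 CPM in solvent libraries. On deposited CPM the irradiated libraries of both lines lay below solvent. After scaling by the trimmed mean of M-values (TMM), only the WT combination libraries did so among these, and no ID1 difference passed the test.

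ID3 had 145 and 136 CPM in WT combination libraries, 182 and 224 CPM in WT irradiation libraries and 109 and 232 CPM in WT APR-246 libraries, against 80.5 and 151 CPM in WT solvent libraries. In Mutant cells it had 156 and 154 CPM in combination libraries, 181 and 149 CPM in irradiation libraries and 142 and 174 CPM in APR-246 libraries, against 92.5 and 106 CPM in solvent libraries. In Null cells it had 130 and 142 CPM in combination libraries, 145 and 149 CPM in irradiation libraries and 117 and 116 CPM in APR-246 libraries, against 61.7 and 96.7 CPM in solvent libraries. Mutant and Null treated libraries were all above their solvent libraries on deposited CPM. After TMM scaling this held for Mutant irradiation alone among the 9 comparisons, and the log2 differences of 0.08 to 0.87 had a standard error of 0.56 and did not pass.

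**Figure D2:**
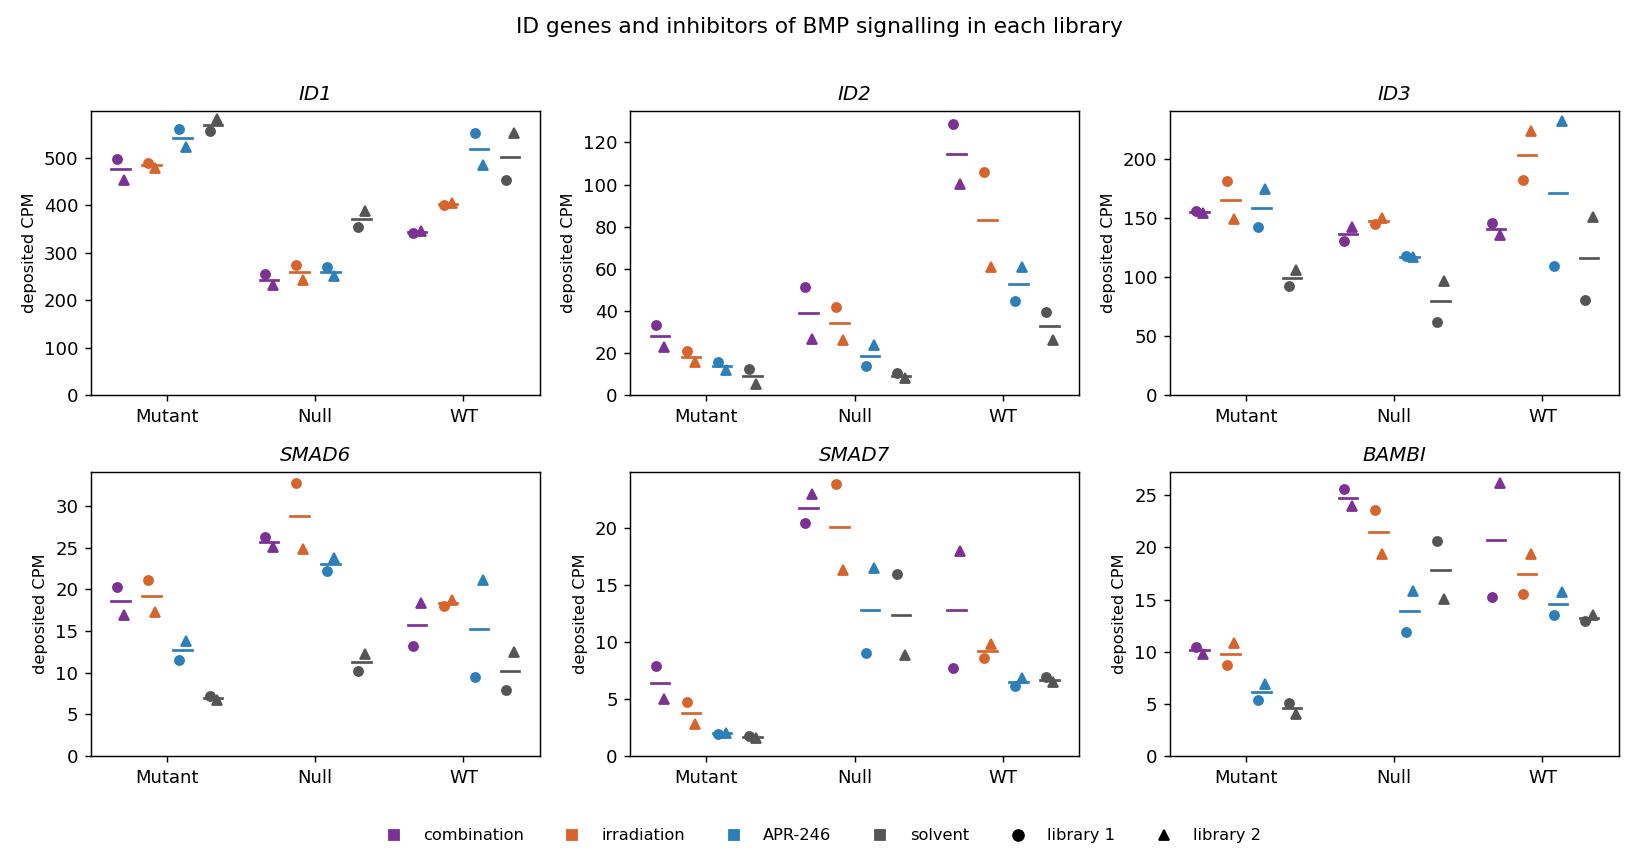
Deposited CPM of ID1, ID2, ID3, SMAD6, SMAD7 and BAMBI in each library, by line (x axis) and treatment (colour); circles are library 1, triangles library 2 and bars group means of 2 libraries. ID2 is highest under the combination in WT (129 and 100 CPM), ID1 treated libraries in Null (232 to 274 CPM) sit below Null solvent (353 and 388 CPM), and SMAD7 in Mutant solvent is at 1.74 and 1.63 CPM.

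Ratios within a library need no scaling between libraries, and they set ID2 and ID3 against ID1. On CPM per kilobase of exon, ID2 in WT cells amounted to 21.2% and 16.2% of ID1 in combination libraries and 14.8% and 8.39% in irradiation libraries, against 4.90% and 2.63% in solvent libraries. In Null cells it was 11.3% and 6.43% of ID1 in combination libraries and 8.57% and 6.02% in irradiation libraries, against 1.64% and 1.16% in solvent libraries. In Mutant cells it was 3.74% and 2.83% in combination libraries and 2.38% and 1.81% in irradiation libraries, against 1.24% and 0.52% in solvent libraries. Irradiated and solvent libraries did not overlap in any line, whereas the combination and irradiation libraries of Null cells did. In irradiated libraries Mutant cells were lowest; in solvent libraries they overlapped with Null cells. The ID2 share under APR-246 alone was 4.52% and 7.03% in WT libraries, where library 1 lay inside the range of WT solvent. The Mutant APR-246 libraries had 1.54% and 1.30%, and the Null APR-246 libraries had 2.82% and 5.36%. ID3 relative to ID1 was 29.3% and 26.9% in WT combination libraries, 31.1% and 38.0% in WT irradiation libraries and 13.6% and 32.9% in WT APR-246 libraries, against 12.2% and 18.7% in WT solvent libraries. In Mutant cells it was 21.5% and 23.3% in combination libraries, 25.4% and 21.4% in irradiation libraries and 17.4% and 22.9% in APR-246 libraries, against 11.4% and 12.5% in solvent libraries. In Null cells it was 35.1% and 42.0% in combination libraries, 36.3% and 42.3% in irradiation libraries and 29.98% and 32.0% in APR-246 libraries, against 12.004% and 17.1% in solvent libraries. Each treated library lay above the solvent libraries of its line except WT APR-246 library 1, which lay between the WT solvent libraries.

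**Figure D3:**
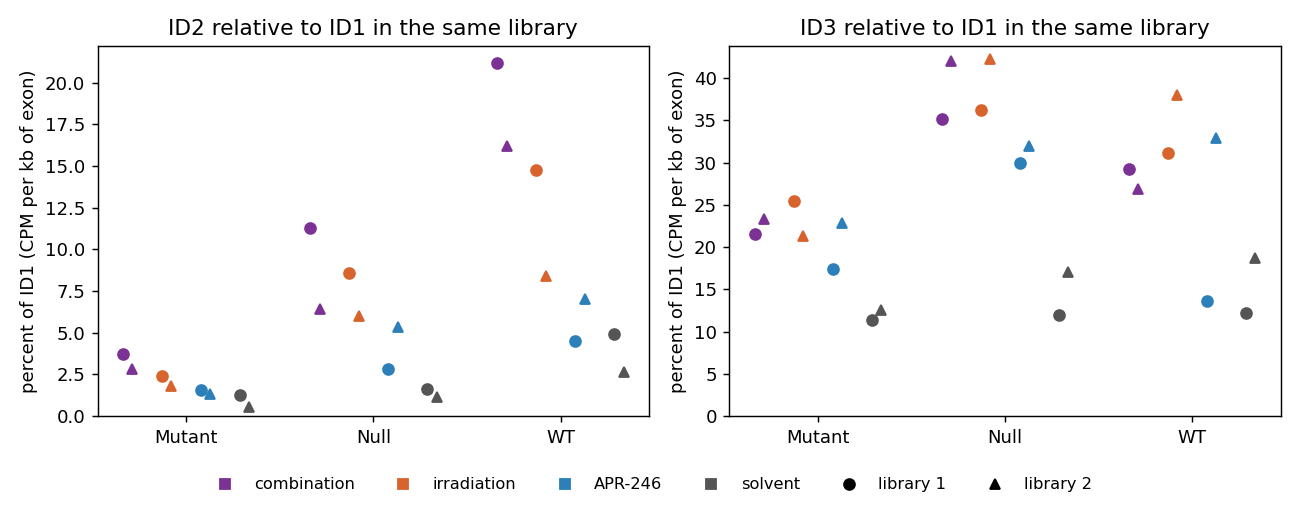
ID2 (left) and ID3 (right) as a percentage of ID1 in the same library, on CPM per kilobase of exon, by line and treatment. For ID2, combination and irradiation libraries lie above solvent in each line, from 1.81% in Mutant irradiation to 21.2% in WT combination, against at most 4.90% in solvent libraries; points of Mutant cells overlap the range of WT solvent.

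The inhibitors were not placed alike against solvent in Null cells, and differences between inhibitors were not tested. SMAD6, which blocks BMP type I receptors and SMAD1, lay above solvent in all treated libraries of the Mutant and Null lines. SMAD7, which blocks BMP and TGF-beta receptors, and BAMBI, a pseudoreceptor that cannot signal, did so on deposited CPM in Mutant cells. In Null cells, on the same scale, SMAD7 overlapped with solvent only under APR-246, and BAMBI under irradiation and APR-246. SMAD7 and BAMBI were called between lines and not against solvent. No inhibitor passed the limma test against solvent in any line without further covariates. With the GC slope as a covariate limma called SMAD6 for irradiation and the combination in Mutant and Null cells and for APR-246 in Null cells, BAMBI for irradiation and the combination in Mutant cells, and SMAD7 for the combination in Mutant cells. In those 5 comparisons that fit called 13.5% to 24.6% of all genes. Windows of SMAD6 and SMAD7 are shown because each holds a motif match and lies outside, or nearly outside, annotated exons. The 250 bases before the SMAD6 start (GRCh38.p14, chr15:66701986-66702235, plus strand) hold the SMAD palindrome GTCTAGAC in capitals, 12 bases before the start. The window of 1 of 3 SMAD7 starts (GRCh38.p14, chr18:48949334-48949583, minus strand) holds TATAAA in capitals, 35 bases before the start.

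SMAD6: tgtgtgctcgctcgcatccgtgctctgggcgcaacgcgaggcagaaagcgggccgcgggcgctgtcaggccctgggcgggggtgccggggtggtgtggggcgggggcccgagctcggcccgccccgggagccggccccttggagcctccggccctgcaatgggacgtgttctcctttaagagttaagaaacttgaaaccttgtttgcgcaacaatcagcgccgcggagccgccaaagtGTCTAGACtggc
SMAD7: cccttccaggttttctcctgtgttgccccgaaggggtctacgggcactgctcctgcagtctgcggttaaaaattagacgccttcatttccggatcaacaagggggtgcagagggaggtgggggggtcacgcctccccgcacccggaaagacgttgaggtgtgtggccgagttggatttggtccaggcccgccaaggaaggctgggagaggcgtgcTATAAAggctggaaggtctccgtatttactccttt

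RefSeq promoter windows were found for 8 of the 10 genes, as 12 windows. Both strands of the 250 bases before the start were searched for GTCTAGAC and GGCGCC, which read the same on both strands, and for TATAAA. GTCTAGAC occurred in 1 of the 12 windows and in 0.182% of all 35116 promoter windows. GGCGCC occurred in 2 of the 12, those of BMP4 and BAMBI, and in 16.4% of all. TATAAA occurred in 2 of the 12, those of ID1 and SMAD7, and in 10.7% of all. The matches describe these windows and say nothing of binding.

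SMAD6 (ENSG00000137834, chr15:66702228-66782848) had 20.3 and 16.9 CPM in Mutant combination libraries, 21.2 and 17.2 CPM in Mutant irradiation libraries and 11.5 and 13.8 CPM in Mutant APR-246 libraries, against 7.18 and 6.70 CPM in Mutant solvent libraries. In Null cells it had 26.2 and 25.1 CPM in combination libraries, 32.8 and 24.9 CPM in irradiation libraries and 22.2 and 23.8 CPM in APR-246 libraries, against 10.2 and 12.3 CPM in solvent libraries. Treated and solvent libraries did not overlap in these lines, on either scale. In WT cells SMAD6 had 13.2 and 18.3 CPM in combination libraries, 18.0 and 18.7 CPM in irradiation libraries and 9.44 and 21.1 CPM in APR-246 libraries, against 7.91 and 12.5 CPM in solvent libraries. The largest of the 9 differences, 1.48 ± 0.46 for irradiation in Mutant cells, had a limma adjusted p of 0.183.

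SMAD7 (ENSG00000101665, chr18:48919853-48952052, minus strand) had 7.89 and 4.99 CPM in Mutant combination libraries, 4.77 and 2.78 CPM in Mutant irradiation libraries and 1.94 and 2.05 CPM in Mutant APR-246 libraries, against 1.74 and 1.63 CPM in Mutant solvent libraries. Its log2 difference for the combination, 1.56 ± 0.41, did not pass (limma adjusted p = 0.108), and DESeq2 called it. In Null cells SMAD7 had 20.5 and 23.0 CPM in combination libraries, 23.8 and 16.4 CPM in irradiation libraries and 9.03 and 16.5 CPM in APR-246 libraries, against 15.9 and 8.85 CPM in solvent libraries. The APR-246 libraries overlapped with solvent there. In WT cells it had 7.69 and 18.0 CPM in combination libraries, 8.63 and 9.85 CPM in irradiation libraries and 6.13 and 6.87 CPM in APR-246 libraries, against 6.92 and 6.50 CPM in solvent libraries.

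BAMBI (ENSG00000095739, chr10:28677342-28682939) had 10.5 and 9.81 CPM in Mutant combination libraries, 8.78 and 10.9 CPM in Mutant irradiation libraries and 5.38 and 6.91 CPM in Mutant APR-246 libraries, against 5.11 and 4.08 CPM in Mutant solvent libraries. In Null cells it had 25.6 and 23.95 CPM in combination libraries, 23.6 and 19.4 CPM in irradiation libraries and 11.9 and 15.8 CPM in APR-246 libraries, against 20.6 and 15.1 CPM in solvent libraries. Treated Mutant libraries all lay above solvent on deposited CPM, whereas in Null cells the irradiation and APR-246 libraries overlapped with it. In WT cells BAMBI had 15.2 and 26.1 CPM in combination libraries, 15.5 and 19.3 CPM in irradiation libraries and 13.6 and 15.7 CPM in APR-246 libraries, against 12.96 and 13.5 CPM in solvent libraries. The largest difference, 1.10 ± 0.37 for irradiation in Mutant cells, had a limma adjusted p of 0.215.

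Counted together, few of the genes passed the test against solvent. For irradiation in WT, 2 of 10 were called (BMP4 and ID2), where 1.56% of all genes tested were called, and 4 had an unadjusted p below 0.05, as did 12.2% of all genes. For the combination in WT, 2 of 10 were called (BMP4 and ID2), where 2.23% of all genes were called. For the combination in Mutant cells, 1 of 9 was called (ID2), against 0.348% of all genes, and for irradiation in Mutant cells 0 of 9 was called by limma, against 0.0774% of all. For irradiation in Mutant cells 6 of 9 had an unadjusted p below 0.05, as did 13.1% of all genes. For the same comparison edgeR called 0 of 9, against 0.0145% of all genes, and DESeq2 called 3 (BMP4, BMP6 and ID2), against 2.89% of all. In Null cells, leaving BMP4 and BMP6 aside as well as BMP2, 1 of 7 was called for irradiation (ID2), against 0.677% of all genes, and 1 of 7 for the combination (ID2), against 1.95% of all. Fitted on the libraries of 1 line alone, none of these calls passed. Under the combination 4 of 10 in WT cells had an unadjusted limma p below 0.05, beside 13.8% of all genes. In Mutant cells 6 of 9 did, beside 11.8%. In Null cells 2 of 7 did for irradiation and 2 of 7 for the combination, beside 11.8% and 15.1%.

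APR-246 alone gave 0 calls by limma among the genes tested here in each line, where it called 0% of all genes in WT, 0% in Mutant and 0.131% in Null cells. At an unadjusted p below 0.05 there were 2 of 10 in WT, 3 of 9 in Mutant and 1 of 7 in Null cells, beside 2.69%, 7.34% and 8.69% of all genes in the same order of lines. On these treatments edgeR called 0 in each line. DESeq2 called BMP4 in Mutant cells, where it called 0.489% of all genes, and none in WT or Null cells. Without WT APR-246 library 1, limma called 1 of 10 in WT cells (BMP4), where 0.639% of all genes were called, and 5 of 10 had an unadjusted p below 0.05, as did 8.31% of all genes.

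The differences from solvent were mostly positive, under irradiation and under the other treatments. For irradiation, 9 of 10 were positive in WT cells and 8 of 9 in Mutant cells, beside 49.7% and 47.5% of all genes tested. Their medians were 0.86 and 1.10, while the medians of all genes tested were -0.0024 and -0.024. In Null cells 6 of 7 were positive with a median of 0.71, beside 49.9% and a median of 0 for all genes. For the combination 8 of 10 were positive in WT, 8 of 9 in Mutant and 6 of 7 in Null cells, beside 53.7%, 49.5% and 47.7% of all genes. For APR-246 the counts were 7 of 10, 8 of 9 and 4 of 7, beside 52.0%, 46.8% and 49.5%. On deposited CPM, both Mutant irradiation libraries exceeded both solvent libraries for 8 of 9 genes, as they did for 22.3% of all genes. After TMM scaling this was also 8 of 9, and 21.1% of all genes. In WT cells the count was 8 of 10 on deposited CPM and 4 of 10 after TMM scaling, where 18.9% and 16.5% of all genes did so.

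**Figure D4:**
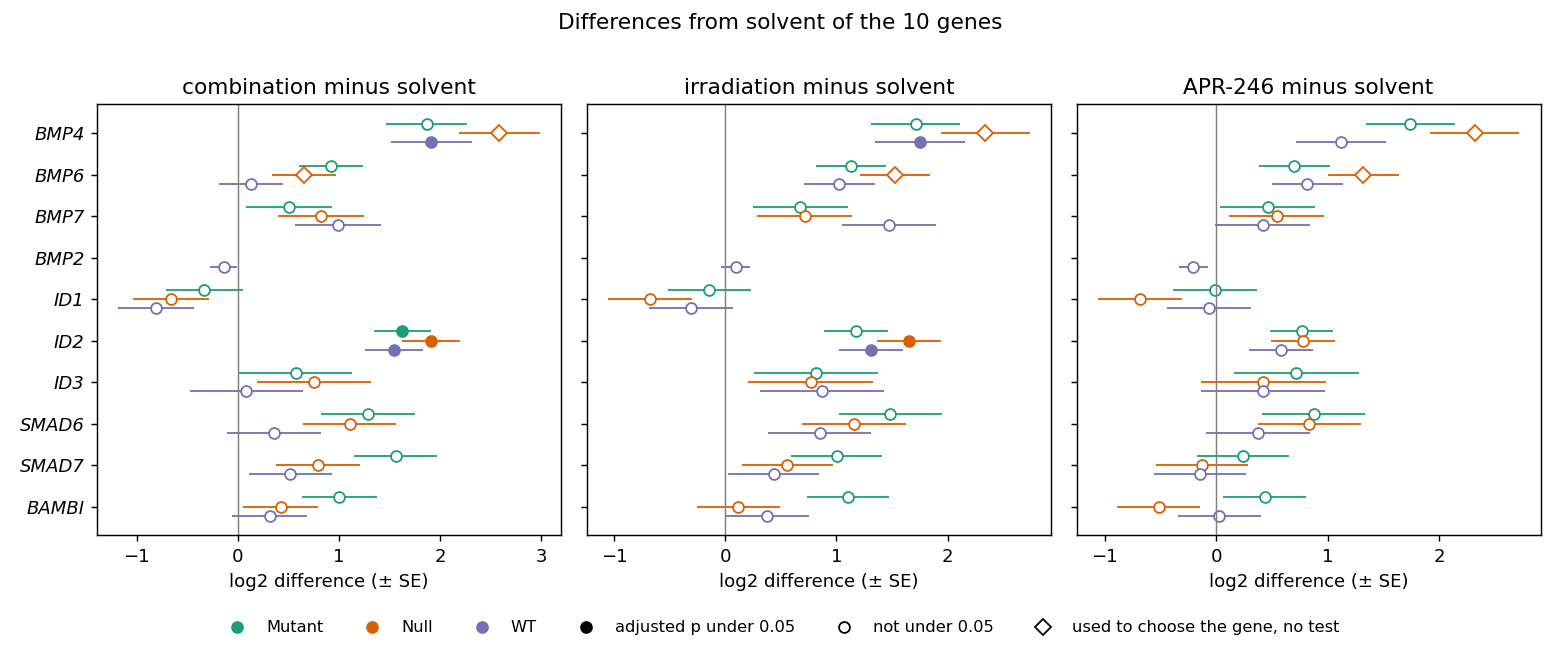
Log2 differences from solvent for the 10 genes under the combination (left), irradiation (middle) and APR-246 (right), with bars of 1 SE from the fit over 12 groups. Filled circles passed an adjusted p of 0.05, and diamonds mark BMP4 and BMP6 in Null cells, where they were picked; BMP2 is drawn for WT cells alone. ID2 is filled in all 3 lines under the combination (1.55 to 1.91), and ID1 lies left of 0.

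No gene passed the limma test of the combination against irradiation. The count of calls was 0 of 10 in WT, 0 of 9 in Mutant and 0 of 7 in Null cells, where 0% of all genes were called in each line. An unadjusted p below 0.05 was met by 1 of 10 in WT, BMP6, beside 4.11% of all genes, and by 0 in Mutant and Null cells, beside 1.96% and 1.67% of all genes; edgeR and DESeq2 called 0. BMP6 had 5.07 and 2.41 CPM in WT combination libraries, against 7.52 and 4.55 CPM in WT irradiation libraries, a log2 difference of -0.89 ± 0.32 (limma adjusted p = 0.785). For ID2 the difference was 0.45 ± 0.29 in Mutant, 0.26 ± 0.29 in Null and 0.24 ± 0.29 in WT cells, and all adjusted p were 0.792 or above.

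The lines differed in the untreated circuit. ID2 was lower in both p53-altered lines: Mutant solvent libraries had 12.3 and 5.40 CPM and Null solvent libraries 10.3 and 8.07 CPM, against 39.6 and 25.9 CPM in WT solvent libraries. The log2 difference was -1.98 ± 0.29 for Mutant against WT (0.253-fold; limma adjusted p = 0.00204) and -1.66 ± 0.29 for Null against WT (0.317-fold; limma adjusted p = 0.0055). The Mutant call held without any 1 library (-2.23 to -1.73). The Null call was lost without WT solvent library 1 (-1.67) and without Null solvent library 1 (-1.56). Both were lost on deposited CPM without scaling (limma adjusted p = 0.107 and 0.11). ID2 was the sole gene of the 9 called in Mutant against WT, where 0.629% of all genes were called, and the sole one of 7 in Null against WT, where 0.992% were.

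SMAD7 and BAMBI separated the Mutant from the Null line. SMAD7 had 1.74 and 1.63 CPM in Mutant solvent libraries, against 15.9 and 8.85 CPM in Null solvent libraries, a log2 difference of -2.66 ± 0.41 (0.158-fold; limma adjusted p = 0.00149). This call held without any 1 of the 4 libraries (-2.88 to -2.45). BAMBI had 5.11 and 4.08 CPM in Mutant solvent libraries, against 20.6 and 15.1 CPM in Null solvent libraries, a log2 difference of -2.01 ± 0.37 (0.248-fold; limma adjusted p = 0.00621). The BAMBI call was lost without Mutant solvent library 1 (-1.86) and without Null solvent library 2 (-1.96). These were the 2 calls among 7 genes in a comparison that called 2.49% of all genes. Against WT, Mutant cells had log2 differences of -1.79 ± 0.41 for SMAD7 (limma adjusted p = 0.0711) and -1.51 ± 0.37 for BAMBI (limma adjusted p = 0.102), and DESeq2 called both. BMP4 in Mutant against WT differed by -1.28 ± 0.40 (limma adjusted p = 0.302).

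Whether a line responded differently from WT was tested on the difference of differences. For Mutant minus WT, 0 of 9 genes were called by limma under APR-246, irradiation or the combination, where 0%, 0.0387% and 0.0387% of all genes were. For Null minus WT, 0 of 7 were called, where 0%, 0.029% and 0.029% of all genes were. At an unadjusted p below 0.05 there were 0 in all 6 comparisons, beside 1.05% to 4.89% of all genes, and edgeR and DESeq2 called 0. For ID2, Null minus WT was 0.34 ± 0.40 under irradiation and 0.37 ± 0.40 under the combination. For BMP4, Mutant minus WT was -0.04 ± 0.57 under irradiation and 0.62 ± 0.57 under APR-246; without WT APR-246 library 1 the last of these was -0.28 (limma adjusted p = 1). With 2 libraries per group, differences between the lines larger than those standard errors could also be missed. The absence of calls does not show that the lines responded alike.

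The other genes of the pathway were taken as a list of 55, of which 37 passed the filter on low counts. These were 3 of 10 further ligands, 6 of 7 receptors, 3 of 4 co-receptors, 4 of 4 signal transducers, 10 of 17 antagonists, 5 of 5 intracellular inhibitors and 6 of 8 further targets. The 4 signal transducers were present: SMAD4 had a median of 29.03 CPM, SMAD5 23.9 CPM, SMAD1 9.64 CPM and SMAD9 1.13 CPM. Among receptors, BMPR1A had a median of 15.4 CPM and BMPR2 11.7 CPM, whereas BMPR1B had 0. The antagonist CHRD, which traps ligands outside the cell, had a median of 27.6 CPM, and GREM1 had 0.

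Across the 9 comparisons with solvent, calls on this list occurred for the combination in Null cells alone, with 2 genes higher and 0 lower of 37, where 1.95% of all genes were called. MSX1, a homeobox gene induced by BMP signalling, had 577 and 639 CPM in Null combination libraries, against 157 and 160 CPM in Null solvent libraries, and rose by 1.88 ± 0.44 (limma adjusted p = 0.0396). Its relative MSX2 had 49.5 and 56.2 CPM, against 15.3 and 15.5 CPM in Null solvent libraries, and rose by 1.69 ± 0.41 (limma adjusted p = 0.0478). Both calls were lost without any 1 of the 4 libraries (1.54 to 2.22 for MSX1 and 1.33 to 2.04 for MSX2) and by edgeR (adjusted p = 0.0684 and 0.0735). Under irradiation in WT cells the differences were 1.25 ± 0.44 for MSX1 (limma adjusted p = 0.197) and 1.28 ± 0.41 for MSX2 (limma adjusted p = 0.155). The median difference of the list for the combination in Null cells was 0.01, beside -0.02 for all genes. In the other 8 comparisons with solvent limma called 0 of 37, with 0 to 7 at an unadjusted p below 0.05, beside 2.69% to 13.8% of all genes; over all 9, edgeR called 0 and DESeq2 called 11, in comparisons where DESeq2 called 0% to 5.44% of all genes. In the 12 remaining comparisons limma called 0 of 37, with 0 to 4 at an unadjusted p below 0.05, beside 1.05% to 11.5% of all genes; edgeR and DESeq2 called 1 each in Null against WT solvent and 0 in the other 11.

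**Figure D5:**
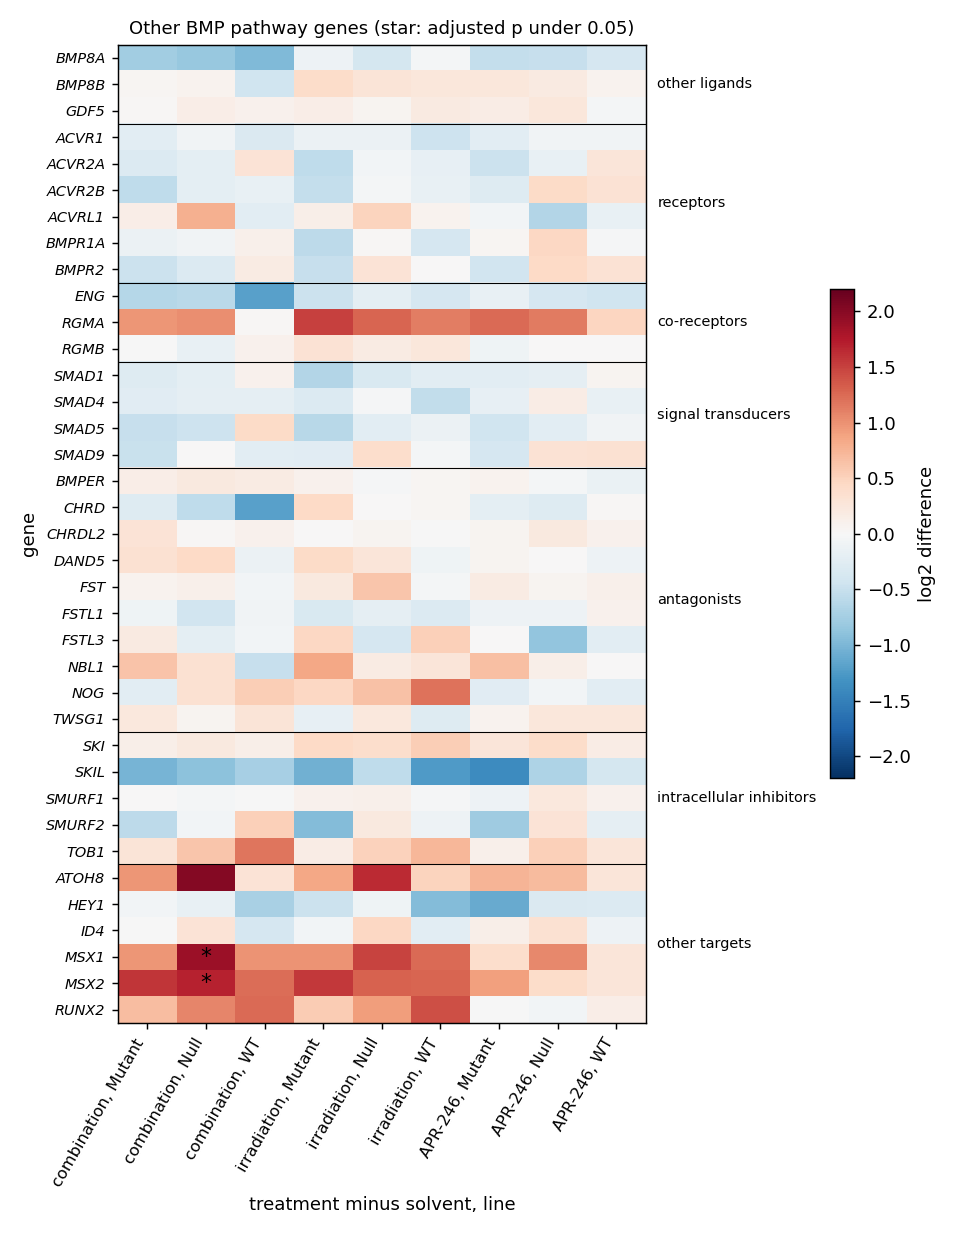
Log2 difference from solvent (colour) of the 37 further pathway genes that passed the filter, in rows by role, for each treatment and line in columns. Stars mark the 2 calls, MSX1 (1.88) and MSX2 (1.69) under the combination in Null cells; most receptors and all signal transducers stay pale.

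As a description, the genes whose pattern over the 12 group means was most like a member were found among 10743 genes by Pearson's r of log2 values. The 12 means share solvent groups and libraries that differ in GC slope, and no p is given. They include the Null groups, whose values were used to choose BMP4 and BMP6, so the likeness of these genes draws in part on that choice. For BMP4 they were AXIN2 (r = 0.971), RHPN2 (r = 0.953) and PTCH1 (r = 0.949). AXIN2 is a feedback inhibitor of WNT signalling and PTCH1 the Hedgehog receptor. For BMP6 they were TPPP (r = 0.927), the BMP co-receptor RGMA (r = 0.915) and EEPD1 (r = 0.912). For ID1 they were FKBP10 (r = 0.963), EXOC7 (r = 0.942) and BMERB1 (r = 0.937), and for SMAD7 they were WNT3 (r = 0.957), TLE1 (r = 0.956) and BAMBI (r = 0.956).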

How the data were processed

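Bulk polyadenylated RNA of 24 libraries was sequenced as paired reads of 100 bases. FastQC, STAR, Subread and featureCounts with build GRCh38.p13 are named in the submitters' processing notes. Versions, annotation release and strand setting are not given in the sources used here, so antisense and overlapping reads cannot be told apart. The deposited values, made by the authors, are CPM. Dividing by the smallest step in each library gave whole reads for 100% of values within 0.05 of a read. Even counts made up 74.5 to 81.5% of values of 2 to 9 reads, so mates may have been counted singly. Floors cover counting error only, whereas the standard errors come from the spread between libraries in the limma fit.

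Symbols were matched for 60419 ids, and coordinates, exon length and GC percent come from GENCODE 29 (58444 ids). Promoter sequences are RefSeq's on GRCh38.p14. The main test was limma-trend with robust variance (limma 3.58.1, edgeR 4.0.16, R 4.3.3) on log2 values of CPM scaled by TMM, after adding 0.5, with 12 group coefficients, 12 residual degrees of freedom, filterByExpr with a count minimum of 10, and Benjamini-Hochberg adjustment over 20668 genes at 0.05. This scale understates changes of low genes. edgeR and DESeq2 1.42.0 on the recovered reads were alternatives. The median standard error was 0.32 for a difference of 2 groups. Groups came from the labels, and all 24 libraries entered the main test. The members, the pathway list, the marker lists and the rule for named genes (all members, up to 3 called pathway genes per comparison, and the 3 genes most like BMP4, BMP6, ID1 and SMAD7) were chosen with earlier results of these data known. Genes shown for label and stress checks were part of that rule, and 1 of these checks is not reported here; pathway genes given by their levels alone were named after their values were seen.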

Additional observations from a re-analysis of the deposited data

Results flagged for a closer look

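Under APR-246, BAMBI was above the solvent mean in both Mutant libraries and below it in both Null libraries after TMM scaling, and neither difference passed the test (limma adjusted p = 0.878 in Mutant and 0.855 in Null cells). Its log2 difference from the mean of the solvent libraries was 0.43 in Mutant cells and -0.52 in Null cells. In CPM it had 5.38 and 6.91 in Mutant APR-246 libraries, against 5.11 and 4.08 in Mutant solvent libraries, and 11.9 and 15.8 in Null APR-246 libraries, against 20.6 and 15.1 in Null solvent libraries, so that on deposited CPM the Null groups overlapped. After TMM scaling it was the Mutant groups that overlapped, with means of 6.49 (SD 2.63) under APR-246 and 4.51 (SD 0.74) in solvent. Over the 15 alternatives the log2 difference ran from 0.041 to 0.83 in Mutant and from -0.63 to -0.35 in Null cells. The difference between the lines was not tested.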

How the results depend on the processing

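With 2 libraries per group, few calls withstood every alternative. Of the calls named, SMAD7 in Mutant against Null solvent held in all 15 alternatives, and ID2 in Mutant against WT solvent in all but the deposited CPM without TMM scaling. That scaling and the alternatives for the pathway list were chosen after seeing the data; it moved the median of all genes by 0.19 (log2) for the combination in WT, 0.17 and 0.12 for the combination against irradiation in WT and Mutant, and 0.12 in Mutant against Null.

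Counts of members called are given by setting, with the share of all genes that the same fit called in brackets; the cause of each change was not tested. Fits with the replicate block or the GC slope called more of all genes in each comparison below. Irradiation in WT (2 in the main test) gave 0 without the filter on low values (0.645%), with the lines compared only (0%) and by edgeR (0.484%), 4 with the block (7.79%), adding BMP6 and BMP7, and 5 with the GC slope (18.0%) and with both (18.7%), adding ID1 too. The combination in WT (2) gave 0 with the lines compared only (0%) and 4 with the GC slope (21.7%) and with both (18.9%), adding BMP7 and ID1. APR-246 in Mutant (0) gave 1, BMP4, with the block (1.45%) and by DESeq2 (0.489%), and 2, with ID2, with the GC slope (6.92%) and with both (10.9%). Irradiation in Mutant (0) gave 5 with the block (11.7%), BMP4, BMP6, ID2, SMAD6 and BAMBI, 6 with the GC slope (13.5%), adding ID1, 5 with both (13.1%), without BMP6, and 3 by DESeq2 (2.89%). The combination in Mutant (1) gave 5 with the block (7.35%), adding BMP4, SMAD6, SMAD7 and BAMBI, 7 with the GC slope (16.6%) and with both (19.8%), adding BMP6 and ID1 too, 3 by DESeq2 (3.06%), and 0 with the lines compared only (0%) and by edgeR (0.0145%). APR-246 in Null (0) gave 4, BMP7, ID1, ID2 and SMAD6, with the GC slope (15.0%) and with both (16.0%). Irradiation in Null (1) gave 2 with the block (6.31%), adding SMAD6, 4 with the GC slope (20.0%) and with both (21.5%), adding BMP7 and ID1 too, and 0 without TMM (0.948%) and with the lines compared only (0.0726%). The combination in Null (1) gave 3 with the block (12.8%), adding BMP7 and SMAD6, 4 with the GC slope (24.6%) and with both (27.0%), adding ID1 too, and 0 with the lines compared only (0.203%). Mutant against WT solvent (1) gave 0 without TMM (0.411%), 2 with a pseudocount of 0.1 (0.619%), adding SMAD7, and 3, adding BAMBI too, with the block (1.62%), the GC slope (5.07%), both (5.26%) and by DESeq2 (1.35%). Null against WT solvent (1) gave 0 without TMM (0.929%) and 2 with the GC slope (8.63%) and with both (8.16%), adding ID1. BMP2 was not counted there, since its Null libraries were all at or below the floor of 3 reads. Mutant against Null solvent (2) gave 4 with the GC slope (15.8%) and with both (14.1%), adding BMP7 and ID1. The combination response in Mutant minus WT (0) gave 1 with the GC slope (1.12%), BMP7. ID1 lay below solvent in all 15 alternatives for the combination in WT (-1.27 to -0.34). The same held in Null cells for the combination (-1.01 to -0.31), irradiation (-1.03 to -0.33) and APR-246 (-1.04 to -0.34). In Mutant against Null solvent ID1 was higher (0.079 to 0.80).

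Leaving out 1 library in turn, the counts ranged 0 to 0 for irradiation in WT, irradiation in Null and the combination in Mutant, 0 to 1 for the combination in WT, the combination in Null, APR-246 in WT and Null against WT, 1 to 1 for Mutant against WT, and 1 to 2 for Mutant against Null.

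For the pathway list, the 2 calls over the 9 comparisons with solvent, of 37 genes each, became 11 without TMM (0% to 2.6% of all genes called). They became 1 with a pseudocount of 0.1, 0 without the filter, 0 with the lines compared only and 0 by edgeR. The block gave 31 (0% to 12.8% of all genes), the GC slope 58 (0% to 24.6%), both 60 (0% to 27.0%) and DESeq2 11 (0% to 5.44%). For the combination in Null alone, the 2 of 37 became 1 with DESeq2 size factors (1.9% of all genes), 1 with a pseudocount of 0.1 (1.38%) and 0 without the filter (0.698%). The count was 6 with the block (12.8%), 10 with the GC slope (24.6%) and 11 with both (27.0%). It was 0 with the lines compared only (0.203%) and by edgeR (0.503%).

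The signs of 8 differences that had not passed the test turned. With 1 library left out, BAMBI for irradiation in WT ranged from -0.031 to 0.79, BMP2 for the combination in WT from -0.31 to 0.028, SMAD7 for the combination in WT from -0.12 to 1.16, BMP7 in Mutant from -0.071 to 1.00 for APR-246 and from -0.029 to 1.04 for the combination, and SMAD6 in Mutant against WT from -1.19 to 0.053. For the combination against irradiation in WT, BMP7 was 0.032 with the GC slope and 0.010 with both, and SMAD6 was 0.0071 with the GC slope.

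The labels number the replicates without saying what a number shares. Deviations of same-numbered libraries correlated above 0.1 in 55 of 66 pairs of groups (r from -0.56 to 0.90), and Null APR-246 went against the other 11 groups, so the numbers were not taken to pair the samples.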
